A study of Mus musculus with 2 samples.

Results

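Regulatory T cells (Treg cells) of subcutaneous adipose tissue (SAT) and visceral adipose tissue (VAT) were compared. They were taken as T cells with a transcript of Foxp3, the transcription factor that defines the lineage. The members were chosen by measured values. A cell needed 500 or more genes, 1000 or more UMIs (unique molecular identifiers, each a counted RNA molecule) and under 10% mitochondrial UMIs. It also needed at least 1 UMI of Trbc1 or Trbc2, the constant segments of the T cell receptor beta chain, and at least 1 of Foxp3. Its tissue came from the hashtag antibody on its surface, whose count, divided by that hashtag's median, had to be at least 2 times the next one. This gave 411 cells, 191 of SAT and 220 of VAT, of 719 Foxp3-positive cells with a hashed sample in all tissues and of 12989 cells that passed the quality filter.

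The series holds CD4 T cells from brown adipose tissue (BAT), SAT, VAT and spleen, measured by droplet-based 3-prime RNA sequencing in 2 libraries, 1 per experiment. All 4 groups came from wild-type (WT) C57BL/6J males of 8 weeks, and the labels name no treatment. The sort took live cells with surface CD4, CD3 and T cell receptor beta chain. Adipose tissue was dissociated mechanically and with collagenase II, spleen only mechanically. Each experiment held 2 hashed samples per tissue, called replicates 1 and 2 in experiment 1 and replicates 3 and 4 in experiment 2, so that SAT and VAT had 4 each. The design text calls the hashed samples of a tissue in an experiment biological duplicates. It does not say whether they were single mice or pools, or from which visceral or subcutaneous pad, so p-values measure the spread between these samples.

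Treg cells restrain other immune cells, and adipose tissue holds populations of them that differ from those of lymphoid organs. A well-known adipose population carries ST2, the receptor for the alarmin interleukin 33, encoded by Il1rl1, and depends on PPARG, a nuclear receptor of lipid metabolism. Other Treg cells carry CXCR3, the receptor for interferon-induced chemokines, which is also found on type 1 helper T cells.

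The libraries contained 4485 and 12239 barcodes with 29153747 and 43879975 gene UMIs, and 20 barcodes occurred in both libraries, 0 of them on Foxp3-positive T cells. The SAT samples had 27, 33, 53 and 78 Foxp3-positive cells and the VAT samples 53, 43, 73 and 51, with summed counts of 268937 to 451626 UMIs per sample. Median UMIs per cell ran from 4587 to 6315 in SAT and from 4074 to 6521 in VAT. In libraries 1 and 2, 67 and 91 Foxp3-positive cells had no clear hashtag and were left out. Near the hashtag limit, 33 and 20 cells had a ratio of 2 to 2.5 and 27 and 37 left out cells had 1.5 to 2. Of the 719 cells with a sample, 120 and 204 had only 1 Foxp3 UMI. SAT replicate 1 stood apart by a weak hashtag, with a median ratio of 2.73 against 3.80 to 9.04 in the other SAT and VAT samples. The counts of called genes and of class differences below are also given without it.

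The label of Treg cells held in the data. Of 19 core Treg genes, 18 had a higher mean in Foxp3-positive cells than in T cells of the same 8 samples without a Foxp3 UMI (Foxp3-zero cells), and 16 were higher in all 8 samples. Ikzf2, which encodes the Treg factor Helios, had a mean of 745 CPM (UMIs of a gene per 1000000 UMIs of the sample) against 60.6, the inhibitory receptor gene Ctla4 432 against 32.9, and Il2ra, the alpha chain of the interleukin 2 receptor, 169.7 against 11.2. The exceptions were Gpr83, higher in 7 of 8 samples, Il2rb in 5 and Socs2 in 2. Foxp3-positive cells made up 8.96% ± 2.41 of T cells in SAT and 9.32% ± 2.90 in VAT (mean ± SD, n = 4), a difference within the spread between samples (2-sided exact permutation p 0.611).

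Treg cells of SAT had more RNA of 4 of 11 listed heat shock genes, Hsph1, Hspa8, Hsp90aa1 and Hsp90ab1, and of St13, Hsp90b1, Cacybp and Psmb9. Treg cells of VAT had more RNA of 1 listed heat shock gene (Hspa1b), of Il1rl1, of the calcium-binding proteins S100a4 and S100a6, of the cold-inducible RNA-binding proteins Cirbp and Rbm3, and of 4 of 15 tested immediate early genes. Of the 8 genes higher in SAT, 5 were no longer called without the cells of over 20000 UMIs. Of those lower in SAT, Cdkn1a, Cst3, Junb and Syt11 also lost their call there. UMIs were summed per hashed sample and tested with edgeR's quasi-likelihood test, with the experiment as a term. Of 4426 genes tested, 25 passed a Benjamini-Hochberg adjusted p of 0.05 (0.565%), 8 higher in SAT (0.181%) and 17 lower (0.384%), and 428 had an unadjusted p under 0.05. All 25 had the same direction in both experiments. In 16 of them all 4 SAT samples lay on 1 side of all 4 VAT samples, which held for 170 of all tested genes (3.84%). SAT was wholly above VAT in 5 of the called genes (1.83% of all tested genes) and wholly below in 11 (2.01% of all). The median log2 fold change of all tested genes was 0.01. Sums do not separate fewer cells with a transcript from fewer transcripts per cell, so the number of cells with a UMI is given for some genes. Without SAT replicate 1, 15 of the 25 were called again, and DESeq2 called 17 of the 24 to which it gave an adjusted p.

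**Figure D1:**
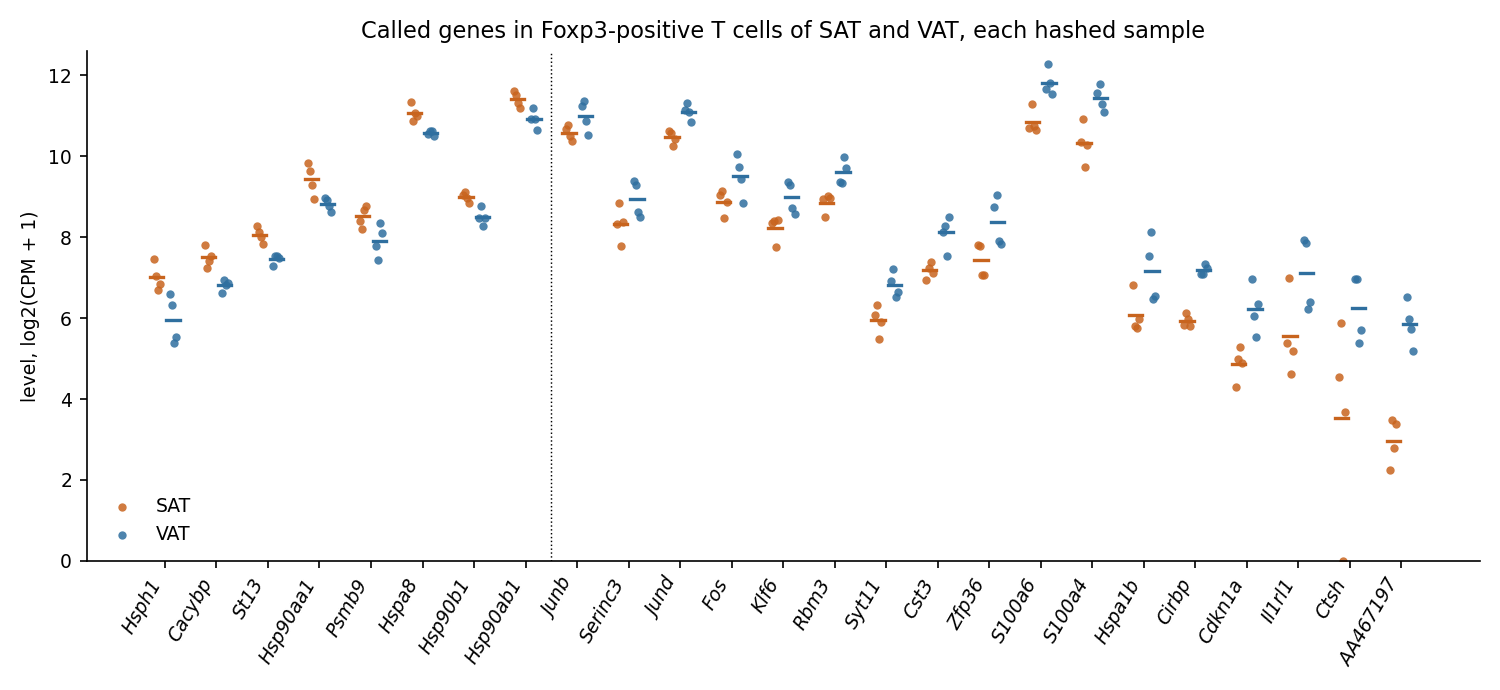
The vertical axis is the level of each called gene on a log2(CPM + 1) scale, each point is the sum of 1 hashed sample (orange SAT, blue VAT) and each short line is the mean of 4. The 8 genes left of the dotted line were higher in SAT and the 17 to its right lower, and Ctsh has 1 SAT sample at 0.

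Of the chaperone genes higher in SAT, Hsph1, which encodes a nucleotide exchange factor for HSP70 chaperones, had the largest fold change. Its level was 175, 129.7, 103 and 114 CPM in SAT replicates 1 to 4 and 95.2, 78.4, 40.5 and 44.9 CPM in VAT. All SAT samples were above all VAT samples, also within each experiment, and the log2 fold change was 1.03 ± 0.20 (standard error, edgeR adjusted p 0.00417). Spleen Treg cells had 133 ± 20.7 CPM, near the SAT level. Hsph1 lies at chr5:149614287-149636376 (mm10).

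Hspa8, the constitutive cytosolic HSP70, was at 2569, 1860.2, 2140.2 and 2046 CPM in SAT and 1484, 1579, 1569 and 1438 in VAT. The groups did not overlap, and it was higher in SAT by 0.51 ± 0.09 on the log2 scale (edgeR adjusted p 0.00141). Both cytosolic HSP90 genes were higher in SAT as well. Hsp90aa1 had 904, 795, 622 and 492 CPM in SAT and 498, 484, 436 and 395 in VAT, a log2 fold change of 0.61 ± 0.12 (edgeR adjusted p 0.00213). Hsp90ab1 had 3116, 2929, 2556 and 2333 CPM in SAT and 1939.7, 2337, 1937 and 1608 in VAT, a log2 fold change of 0.49 ± 0.09 (edgeR adjusted p 0.00113). For these genes SAT was above VAT within each experiment, and the lowest SAT sample was slightly below the highest VAT sample.

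Further genes higher in SAT were St13, Hsp90b1 and Cacybp. St13, a co-chaperone that links HSP70 and HSP90, was at 309, 279.9, 255 and 225 CPM in SAT and 155, 183, 184 and 176 in VAT, with a log2 fold change of 0.61 ± 0.14 (edgeR adjusted p 0.0274). Hsp90b1, the HSP90 of the endoplasmic reticulum, was at 528, 549.5, 501 and 457 CPM in SAT and 352, 431, 310.1 and 356 in VAT, with 0.50 ± 0.12 (edgeR adjusted p 0.0274). Cacybp, a calcyclin-binding protein that also binds ubiquitin ligases, was at 223, 150.2, 170.0 and 185 CPM in SAT and 97.4, 121, 112 and 116 in VAT, with 0.72 ± 0.17 (edgeR adjusted p 0.0362). The groups overlapped in none of these 3 genes. Their calls were not stable. With each of the 8 samples left out in turn, St13 and Hsp90b1 were called in 2 fits and Cacybp in 1. DESeq2 did not call them (DESeq2 adjusted p 0.190, 0.106 and 0.234). The remaining gene higher in SAT was Psmb9, an interferon-inducible subunit of the immunoproteasome, at 335, 294, 408 and 435 CPM in SAT and 217, 173, 322 and 273 in VAT, with 0.58 ± 0.13 (edgeR adjusted p 0.0176). Its SAT samples were above the VAT samples within each experiment.

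Hspa1b, a stress-inducible HSP70, was lower in SAT. It had 112, 54.6, 52.8 and 61.5 CPM in SAT and 184, 278, 88.2 and 93.1 in VAT, a log2 fold change of -1.10 ± 0.23 (edgeR adjusted p 0.00763). SAT was lower within each experiment, although SAT replicate 1 exceeded VAT replicates 3 and 4. Its neighbour and near-identical copy Hspa1a had a mean of 55.7 CPM in SAT and 126.5 in VAT and did not pass (log2 -1.11, edgeR adjusted p 0.194). Reads of this pair may be split between the copies, so the value of each is uncertain. Hspa1b was at 10.4 ± 11.8 CPM in spleen, whose cells were not exposed to collagenase, and at 243 ± 129.6 in BAT. Spleen differed from fat in digestion as well as tissue, which cannot be told apart here. SAT and VAT were both digested, and whether digestion acted alike on their cells was not tested. Of the 11 heat shock genes listed, all were tested, 4 were higher in SAT and 1 was lower, against 0.181% and 0.384% of all tested genes. Of their log2 fold changes 8 were positive and 3 negative, with a median of 0.49 against 0.01 over all tested genes. The mitochondrial chaperonin genes Hspd1 (0.83, edgeR adjusted p 0.0689) and Hspe1 (0.92, edgeR adjusted p 0.204) did not pass, though in both all SAT samples lay above all VAT samples.

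The promoters of Hsph1 and Hspa1b are shown because both hold the letters of a heat shock element, facing repeats of GAA, while the genes differed between the fat depots in opposite directions. Both strands were searched for TTCNNGAA and GAANNTTC, and the matches are in capitals. Sequences are the 250 bases before the start site from RefSeq (GRCm38.p6), on the gene's own strand, 5′ to 3′. The Hsph1 window is chr5:149636337-149636586 (minus strand) and its match begins 33 bases before the start. It is the first of 2 windows listed for Hsph1, and its RefSeq start lies inside the GENCODE span of the gene given above. The Hspa1b window is chr17:34959239-34959488 (minus strand) and its match begins 104 bases before the start.
Hsph1: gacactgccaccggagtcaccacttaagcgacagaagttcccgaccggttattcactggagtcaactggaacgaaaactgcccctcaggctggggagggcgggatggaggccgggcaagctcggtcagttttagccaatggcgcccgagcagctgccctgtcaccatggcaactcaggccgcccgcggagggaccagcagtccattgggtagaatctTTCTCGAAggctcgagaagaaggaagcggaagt
Hspa1b: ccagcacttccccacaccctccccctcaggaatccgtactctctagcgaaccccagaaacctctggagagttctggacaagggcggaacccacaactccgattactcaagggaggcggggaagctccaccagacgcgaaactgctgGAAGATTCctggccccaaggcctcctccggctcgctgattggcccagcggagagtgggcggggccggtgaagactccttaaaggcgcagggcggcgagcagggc
Of the 25 called genes, 4 of the 8 higher and 15 of the 17 lower in SAT were in the promoter table. A match was found in 2 of those 4 (Hsph1 and Psmb9) and in 4 of those 15 (Hspa1b, Cdkn1a, S100a6 and Syt11), counting a gene when any of its windows held one. Counted in the same way, 3932 of 27025 genes in the table held a match (14.5%), and 12.8% of all 32851 windows of this length did. A match is a run of letters and no evidence of binding. Hspa8, Hsp90aa1, Hsp90ab1, St13, Rbm3 and Ctsh were not in the table.

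Single cells held much of the chaperone RNA of some SAT samples. In SAT replicate 1, 1 cell of 42629 UMIs held 15.9% of all UMIs of the sample, 36.5% of those of Hspa8, 30.1% of Hsp90ab1, 43.3% of Cacybp and 25.3% of St13. In SAT replicate 2, 1 cell of 23714 UMIs held 8.09% of all UMIs, 32.6% of those of Hsp90aa1, 34.2% of Hsph1 and 25.6% of Psmb9. In VAT samples the highest cell held at most 9.60% of Hspa8, 10.8% of Hsp90ab1 and 10.7% of Hsp90aa1. For St13, Psmb9, Cacybp and Hsph1 it held at most 10.9%, 17.3%, 19.4% and 21.4%.

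Of the 8 genes higher in SAT, 5 lost their call without the cells with most UMIs. Cells over 20000 UMIs numbered 7 in SAT and 9 in VAT. Without them Hsp90aa1 had a log2 fold change of 0.30 (edgeR adjusted p 0.497), Hsp90ab1 0.29 (edgeR adjusted p 0.30), Hspa8 0.28 (edgeR adjusted p 0.377), St13 0.42 (edgeR adjusted p 0.299) and Cacybp 0.41 (edgeR adjusted p 0.522), all still positive but not called. Hsph1 at 0.92 (edgeR adjusted p 0.0467), Hsp90b1 at 0.54 (edgeR adjusted p 0.0189) and Psmb9 at 0.59 (edgeR adjusted p 0.0203) stayed called, as did Hspa1b at -1.20 (edgeR adjusted p 0.000678). With each cell thinned to 2000 UMIs, 7 of the 8 had enough counts to test and 0 were called, all with positive log2 fold changes, from 0.26 for Hsp90aa1 (edgeR adjusted p 0.663) to 0.62 for Cacybp (edgeR adjusted p 0.554). Of the genes lower in SAT, Cdkn1a, Cst3, Junb and Syt11 lost their call without the cells over 20000 UMIs (edgeR adjusted p 0.817, 0.980, 0.233 and 0.202). Ctsh then had too few counts to test, and the others stayed called. After thinning, Zfp36, Klf6, Syt11 and Cst3 were not called (edgeR adjusted p 0.229, 0.0857, 0.412 and 0.803). Fos, Jund, Junb, Rbm3, S100a4, S100a6 and Serinc3 stayed called, and the others could not be tested. Whether the cells with most UMIs are doublets was not tested.

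Among receptors, Il1rl1 was lower in SAT Treg cells. It had 40.9, 126, 23.5 and 35.5 CPM in SAT and 241, 232, 73.9 and 83.4 in VAT, a log2 fold change of -1.44 ± 0.24 (edgeR adjusted p 0.000373). SAT was below VAT within each experiment, with log2 differences of -1.71 and -1.40, while SAT replicate 2 exceeded both VAT samples of experiment 2. Spleen Treg cells had 21.1 ± 20.2 CPM and BAT Treg cells 40.0 ± 15.01. Il1rl1 lies at chr1:40429570-40465415 (mm10).

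Counted by cells, Il1rl1 UMIs were found in fewer SAT than VAT Treg cells. The share was 22.2% (exact 95% interval 8.62 to 42.3), 42.4% (25.5 to 60.8), 13.2% (5.48 to 25.3) and 8.97% (3.68 to 17.6) in SAT replicates 1 to 4. In VAT it was 45.3% (31.6 to 59.6), 51.2% (35.5 to 66.7), 21.9% (13.1 to 33.1) and 25.5% (14.3 to 39.6). The means were 21.7% ± 14.9 in SAT and 35.96% ± 14.4 in VAT (SD, n = 4), so the shares differed more between experiments than between depots. Within experiments SAT was lower by 15.9 and 12.61 points. The 2-sided exact permutation p within experiments was 0.0556, the smallest that 36 arrangements allow, and 0.0833 adjusted over 6 shares. In cells with a UMI of it, SAT also had fewer UMIs, 71 in 34 cells against 237 in 75 cells of VAT. Spleen had 6.07% ± 4.89 and BAT 11.7% ± 2.61.

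More SAT than VAT Treg cells carried Cxcr3. The share was 66.7% (exact 95% interval 46.0 to 83.5), 48.5% (30.8 to 66.5), 45.3% (31.6 to 59.6) and 48.7% (37.2 to 60.3) in SAT. In VAT it was 35.8% (23.1 to 50.2), 39.5% (25.0 to 55.6), 41.1% (29.7 to 53.2) and 29.4% (17.5 to 43.8). All SAT samples were above all VAT samples, with means of 52.3% ± 9.71 and 36.5% ± 5.20 (SD, n = 4) and differences of 19.9 and 11.7 points within experiments (2-sided exact permutation p 0.0556, the smallest it allows, and 0.0833 adjusted over 6 shares). Spleen had 13.9% ± 6.44 and BAT 22.6% ± 5.53. Pooled over samples, Foxp3-zero T cells had shares of 52.1% in SAT and 44.8% in VAT, in the same direction. In the sums, Cxcr3 was at 175, 164, 164 and 220.0 CPM in SAT and 108, 127, 153 and 148 in VAT, a log2 fold change of 0.45 ± 0.16 that did not pass over all genes (edgeR adjusted p 0.281).

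**Figure D2:**
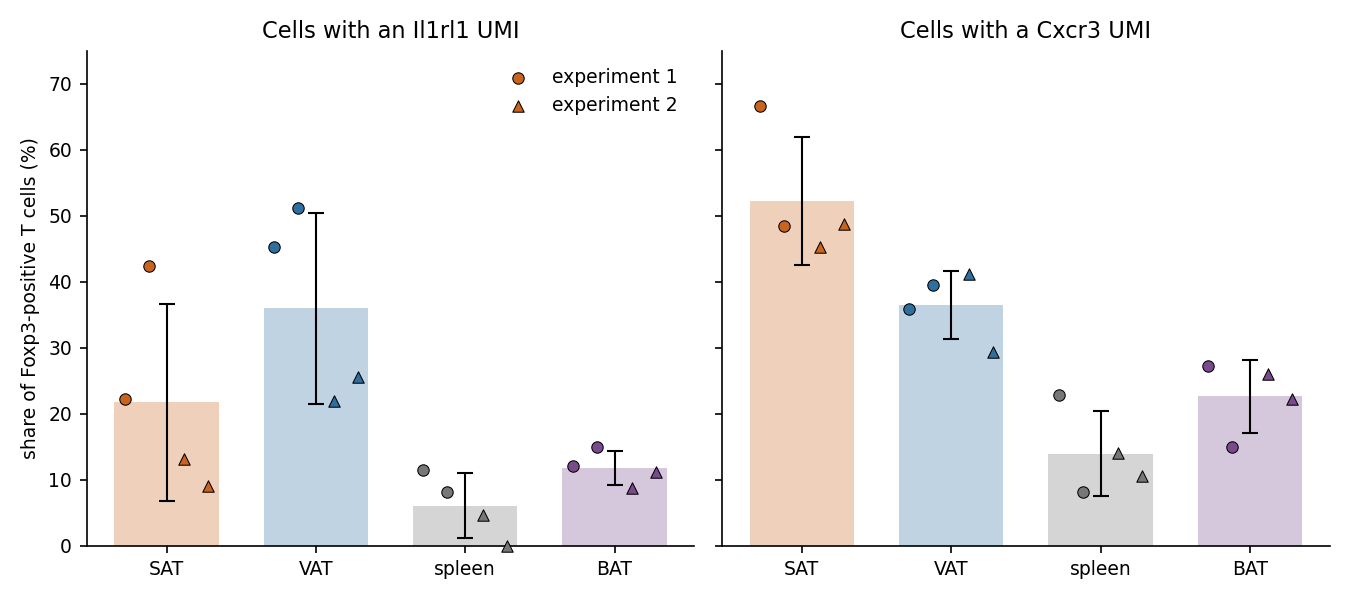
The vertical axes are the percent of Foxp3-positive T cells with at least 1 UMI of Il1rl1 (left) or Cxcr3 (right) in each tissue, with points for hashed samples (symbol by experiment), bars for the mean and whiskers for the SD of 4. Il1rl1 shares of SAT and VAT overlap across experiments, and all SAT samples are above all VAT samples for Cxcr3.

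Both shares lay above those in cells that should lack the genes. In 1019 SAT and VAT T cells with naive genes (a UMI of Ccr7 and of Lef1, none of S100a4 or Foxp3), Il1rl1 was found in 2 cells (0.196%) and Cxcr3 in 57 (5.59%), at a median of 5256 UMIs per cell against 5098 in the Treg cells. With each cell thinned to 2000 UMIs, which left out 12 SAT and 3 VAT cells, the Il1rl1 shares were 8.62% ± 2.37 in SAT and 21.2% ± 8.66 in VAT (exact permutation p 0.0556) and the Cxcr3 shares 32.3% ± 11.97 and 20.1% ± 6.53 (exact permutation p 0.167). At a hashtag ratio of at least 4, which leaves SAT replicate 1 out, the Cxcr3 shares were 45.9% and 40.9%, a difference of 5.01 points (exact permutation p 0.333), and that of Il1rl1 was -18.5 points.

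The cells were also divided by their UMIs of both receptors, where a cell without a UMI may still express the gene. Cells with Il1rl1 and no Cxcr3 made up 12.8% ± 7.87 of SAT and 26.03% ± 10.2 of VAT Treg cells, and those with Cxcr3 and no Il1rl1 43.4% ± 10.5 and 26.5% ± 4.32 (SD, n = 4). For both differences the exact permutation test gave p 0.0556, the smallest it allows, and 0.0833 adjusted over 6 shares. Cells with both receptors made up 8.91% ± 7.25 and 9.94% ± 5.20 (exact permutation p 0.722), and cells with neither 34.9% ± 11.9 and 37.5% ± 11.4 (exact permutation p 0.278). In cells these were 21, 83, 13 and 74 in SAT and 54, 60, 21 and 85 in VAT, for Il1rl1 only, Cxcr3 only, both and neither. Cells with neither made up 82.4% ± 7.78 in spleen.

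**Figure D3:**
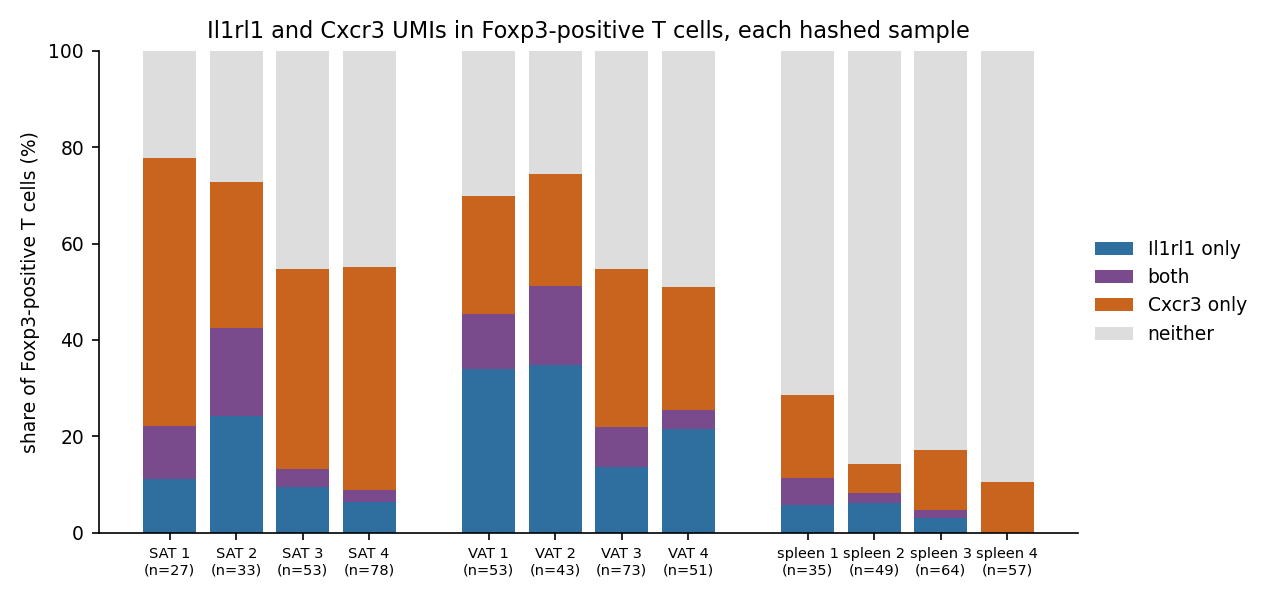
Each stacked bar is 1 hashed sample and its height the percent of Foxp3-positive T cells with only an Il1rl1 UMI, only a Cxcr3 UMI, both or neither, with the number of cells under the bar. The Il1rl1-only part is larger in VAT and the Cxcr3-only part larger in SAT in both experiments, and the part with neither is largest in spleen.

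Apart from Il1rl1, no tested gene of the ST2-positive adipose list passed. Of 24 listed genes 14 passed the filter on low counts, 1 was lower in SAT (Il1rl1) and 0 higher by edgeR, and all 14 log2 fold changes were negative, with a median of -0.52 against 0.01 over all genes. Ltb4r1, a leukotriene B4 receptor, had 40.9, 143, 35.2 and 75.7 CPM in SAT and 213, 235, 119 and 112 in VAT, a log2 fold change of -1.15 ± 0.28 (edgeR adjusted p 0.0967), and 19.6% ± 5.80 of SAT and 36.7% ± 8.84 of VAT cells carried it. SAT was lower within each experiment. Gata3, a transcription factor of type 2 immunity, had a log2 fold change of -0.44 ± 0.16 (edgeR adjusted p 0.255), Rora -0.39 ± 0.20 (edgeR adjusted p 0.520) and the receptor gene Klrg1 -0.02 ± 0.21 (edgeR adjusted p 0.993). Of the 10 listed genes under the filter, Pparg had 10 UMIs in SAT and 38 in VAT, and Il10, an anti-inflammatory cytokine, 15 and 71.

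Secreted products of the program were spread unevenly over few cells. Areg, a growth factor in tissue repair, had 78.1, 30.7, 55.7 and 68.6 CPM in SAT and 199, 451, 93.0 and 67.4 in VAT, and did not pass (log2 -1.54 ± 0.62, edgeR adjusted p 0.522). It was found in 16 SAT and 32 VAT cells. Cxcl2, a chemokine for neutrophils, had 11.2, 37.5, 2.93 and 52.0 CPM in SAT and 578, 925, 83.5 and 205 in VAT. The groups did not overlap, yet the log2 fold change of -3.69 ± 0.81 did not pass (edgeR adjusted p 0.219). Its 643 VAT UMIs came from 26 cells, with 29.5% of them in 1 cell.

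No tested gene of the type 1 helper list passed. Of 19 listed, 13 were tested, 0 were higher and 0 lower by edgeR, 8 log2 fold changes were positive and 5 negative, and the median was 0.45. Ccl5, a chemokine that attracts T cells, had 1379.5, 713, 792 and 1609 CPM in SAT and 354, 379, 489 and 779.7 in VAT (log2 1.22 ± 0.37, edgeR adjusted p 0.390). It was found in 62.7% ± 5.43 of SAT and 42.0% ± 4.93 of VAT Treg cells. Nkg7, a granule membrane protein, had a log2 fold change of 0.66 ± 0.18 (edgeR adjusted p 0.0967), and Tbx21, the factor of the type 1 program, 0.50 ± 0.32 (edgeR adjusted p 0.658). Interferon-inducible genes had 16 of 18 tested, 0 higher and 0 lower, 13 positive and 3 negative, with a median of 0.47. Among them was Igtp, an interferon-induced GTPase, at 0.71 ± 0.22 (edgeR adjusted p 0.164).

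Immediate early genes, which are switched on within minutes of a stimulus, were among those lower in SAT. Of 18 listed, 15 were tested, and 4 were lower in SAT and 0 higher by edgeR, where 0.384% of all tested genes were lower. All 15 log2 fold changes were negative, with a median of -0.55 against 0.01 over all tested genes. Zfp36, whose product degrades cytokine messenger RNAs, had 223, 218, 132 and 132 CPM in SAT and 425, 526, 236 and 228 in VAT, a log2 fold change of -0.96 ± 0.14 (edgeR adjusted p 4.91e-05). All VAT samples were above all SAT samples.

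AP-1 transcription factor subunits passed with it. Jund had 1577, 1519, 1211 and 1379 CPM in SAT and 2236, 2516, 2189 and 1823 in VAT without overlap, a log2 fold change of -0.62 ± 0.09 (edgeR adjusted p 4.91e-05). A Jund UMI was found in nearly all cells, 97.8% ± 3.61 in SAT and 98.0% ± 2.32 in VAT (SD, n = 4). Fos had 524, 563, 352 and 461 CPM in SAT and 1061, 843, 692 and 456 in VAT, with -0.66 ± 0.13 (edgeR adjusted p 0.00763). Junb had 1617, 1744, 1445 and 1327 CPM in SAT and 2407, 2608, 1860.3 and 1460.0 in VAT, with -0.42 ± 0.09 (edgeR adjusted p 0.0178). For Fos, SAT replicate 4 was slightly above VAT replicate 4, and for Junb the groups overlapped only across experiments. Jun, a partner of Fos, had means of 129.7 and 286.9 CPM and did not pass (log2 -1.10, edgeR adjusted p 0.281). Klf6, a zinc finger factor outside the list, was lower too, at 327, 335, 214 and 341 CPM in SAT and 653, 621, 419.8 and 382 in VAT (log2 -0.73 ± 0.13, edgeR adjusted p 0.00141). Spleen Treg cells had 33.8 ± 25.9 CPM of Fos and 277 ± 64.1 of Junb. They were not digested with collagenase, so tissue and digestion cannot be told apart between spleen and fat. The part of digestion in the differences between SAT and VAT was not tested. All 12 tested genes of the NF-kB list, which are also stimulus-driven, had negative log2 fold changes, 0 of them called. Their median was -0.38 against 0.01 over all tested genes.

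S100a4 and S100a6, genes of calcium-binding proteins, separated the depots without overlap. S100a4, found in motile and effector T cells, was at 1309, 1915, 847 and 1239.7 CPM in SAT and 2998, 3510.0, 2490.0 and 2182 in VAT, a log2 fold change of -1.08 ± 0.13 (edgeR adjusted p 0.000263). Spleen Treg cells had 481 ± 475 CPM, below both. S100a6 was at 1658, 2475, 1712 and 1602 CPM in SAT and 3233, 4938, 3556 and 2955 in VAT, with -0.97 ± 0.15 (edgeR adjusted p 0.0254). With all 4 tissues in 1 fit neither gene was called (edgeR adjusted p 0.588 for S100a4 and 0.388 for S100a6). S100a6 also lost its call with library-size scaling (edgeR adjusted p 0.107) and without SAT replicate 3 or 4 (edgeR adjusted p 0.129 and 0.105). Of 14 genes of the S100, annexin and galectin list, all were tested, 2 were lower in SAT and 0 higher, where 0.384% of all tested genes were lower. Of the log2 fold changes 13 were negative, with a median of -0.33 against 0.01 over all tested genes. S100a11 did not pass (log2 -0.43 ± 0.11, edgeR adjusted p 0.0907), and its samples overlapped. S100a4 at chr3:90603771-90606045 and S100a6 at chr3:90612882-90624181 (mm10) are neighbours. S100a4 was found in 146 of 191 SAT and 180 of 220 VAT cells, so the levels per cell differed more than the number of cells.

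Both depots had more S100a4 in their Il1rl1-positive Treg cells. Pooled over samples, S100a4 was at 2657 CPM in SAT and 4102 CPM in VAT cells with an Il1rl1 UMI, and at 932 and 1873 CPM in cells without. S100a6 was at 2998 and 5411 CPM with and 1517 and 2364 CPM without, so that VAT was above SAT in each class. These pooled values carry no spread between samples, and 14 of the 34 SAT cells with an Il1rl1 UMI were of replicate 2. With Il1rl1-positive cells left out, 302 cells remained and 3 of the 25 genes were called among 3314 tested, S100a4 (log2 -0.99, edgeR adjusted p 0.000693), S100a6 (log2 -0.63, edgeR adjusted p 0.00217) and Cirbp (log2 -1.17, edgeR adjusted p 0.0369). The other genes were not called, and 21 of 21 tested kept their sign. Some log2 fold changes were smaller than with all cells, such as Zfp36 (-0.45 against -0.96), Klf6 (-0.34 against -0.73) and Hspa1b (-0.38 against -1.10). Others were not much smaller, such as Hsph1 (1.01 against 1.03), Hspa8 (0.51 in both) and Rbm3 (-0.85 against -0.75). Whether calls were lost through fewer cells or through the class removed was not tested. This setting was chosen after the data were seen.

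The cold-inducible RNA-binding genes were lower in SAT. Cirbp had 55.8, 68.3, 61.6 and 54.4 CPM in SAT and 135, 134, 159.8 and 151 in VAT, a log2 fold change of -1.27 ± 0.20 (edgeR adjusted p 0.000109). A Cirbp UMI was found in 35.5% ± 11.5 of SAT and 55.3% ± 4.63 of VAT cells. Rbm3 had 487, 358, 519 and 494 CPM in SAT and 655, 647, 1011 and 838 in VAT, with -0.75 ± 0.11 (edgeR adjusted p 0.000109). Neither overlapped between depots. Cirbp lies at chr10:80165985-80172786 and Rbm3 at chrX:8138975-8145880 (mm10). Spleen Treg cells had 58.4 ± 5.65 CPM of Cirbp and 258 ± 64.5 of Rbm3.

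Further genes lower in SAT were of varied function. Cdkn1a, the cell cycle inhibitor p21, had 18.6, 30.7, 38.1 and 28.4 CPM in SAT and 124, 65.4, 45.3 and 80.2 in VAT (log2 -1.39 ± 0.31, edgeR adjusted p 0.0176). Syt11, a synaptotagmin, had 66.9, 78.5, 44.0 and 59.1 CPM in SAT and 119.6, 147, 90.6 and 99.5 in VAT (log2 -0.85 ± 0.20, edgeR adjusted p 0.0274). In both genes the depots did not overlap. Serinc3, a membrane protein, had 319.8, 457, 217 and 329 CPM in SAT and 669, 624, 394 and 359 in VAT (log2 -0.60 ± 0.13, edgeR adjusted p 0.0176), lower in SAT within each experiment. AA467197, named after its values were seen, had the largest fold change of the called genes, at 3.72, 10.2, 5.86 and 9.46 CPM in SAT and 90.8, 62.1, 52.5 and 35.3 in VAT (log2 -2.91 ± 0.39, edgeR adjusted p 3.43e-05). It rests on 10 UMIs in SAT and 93 in 29 cells of VAT, of which the highest cell held 12, and 1 cell held 72.7% of the 11 UMIs of VAT replicate 4.

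Cst3, Ctsh and Cdkn1a lost their calls without 4 VAT cells rich in myeloid markers. Cst3, the protease inhibitor cystatin C, had 123, 150.2, 167 and 137 CPM in SAT and 279, 310.5, 184 and 363 in VAT (log2 -0.95 ± 0.18, edgeR adjusted p 0.00427). Ctsh, a lysosomal protease, had 22.3, 58.0, 0 and 11.8 CPM in SAT and 124, 124, 40.5 and 51.3 in VAT (log2 -1.92 ± 0.34, edgeR adjusted p 0.00141). The 7 myeloid markers, Cst3 among them, summed to 151 to 185 CPM in SAT and 451 to 1627 in VAT. The other 6 had 35 UMIs in SAT and 788 in VAT, of which 780 were in 4 cells, 1 in each VAT sample. Without those 4 cells Cst3 had a log2 fold change of -0.04 (edgeR adjusted p 0.980), Cdkn1a -0.81 (edgeR adjusted p 0.290) and Ctsh had too few counts to test. Cacybp at 0.69 (edgeR adjusted p 0.0647) and St13 at 0.56 (edgeR adjusted p 0.0690) lost their calls too, and 20 of the 25 genes stayed called, among them Il1rl1 at -1.55 (edgeR adjusted p 0.000143) and S100a4 at -1.11 (edgeR adjusted p 1.53e-05).

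Of the markers of other cell types, those of B cells had the highest sums in SAT. The 6 B cell markers summed to 286 to 416 CPM in SAT and 295 to 634 in VAT. Most of this was Ighm, the immunoglobulin heavy chain mu gene, with 401 UMIs in SAT and 448 in VAT, found in 68.6% ± 10.5 and 68.5% ± 8.51 of cells (SD, n = 4). The 6 stromal markers summed to 9.46 to 29.7 and 16.7 to 45.8, with Pdgfra at 0 in all 8 samples. The 6 adipocyte markers summed to 20.5 to 192 CPM in SAT and 7.16 to 39.2 in VAT, with 81 UMIs of Fabp4 in SAT replicate 4, and Adipoq had 1 UMI in all. The 4 endothelial markers summed to 37.2 to 66.2 and 35.4 to 59.6 CPM, the 4 erythroid ones to 9.46 to 71.7 and 12.8 to 150.3, and the 6 CD8 and NK markers to 9.46 to 52.1 and 17.7 to 32.7. With cells left out that had over 0.2% of their UMIs on these markers or the myeloid ones, CD8 and NK markers aside, 391 cells remained, 22 genes were called and 20 of the 25 were called again. Cst3 (log2 -0.08, edgeR adjusted p 0.952), Cdkn1a (-0.84, edgeR adjusted p 0.273), St13 (0.54, edgeR adjusted p 0.105) and Cacybp (0.68, edgeR adjusted p 0.0801) were not called, and Ctsh had too few counts to test. This limit was chosen after the data were seen, and the part of CD8 and NK cells was not tested.

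**Figure D4:**
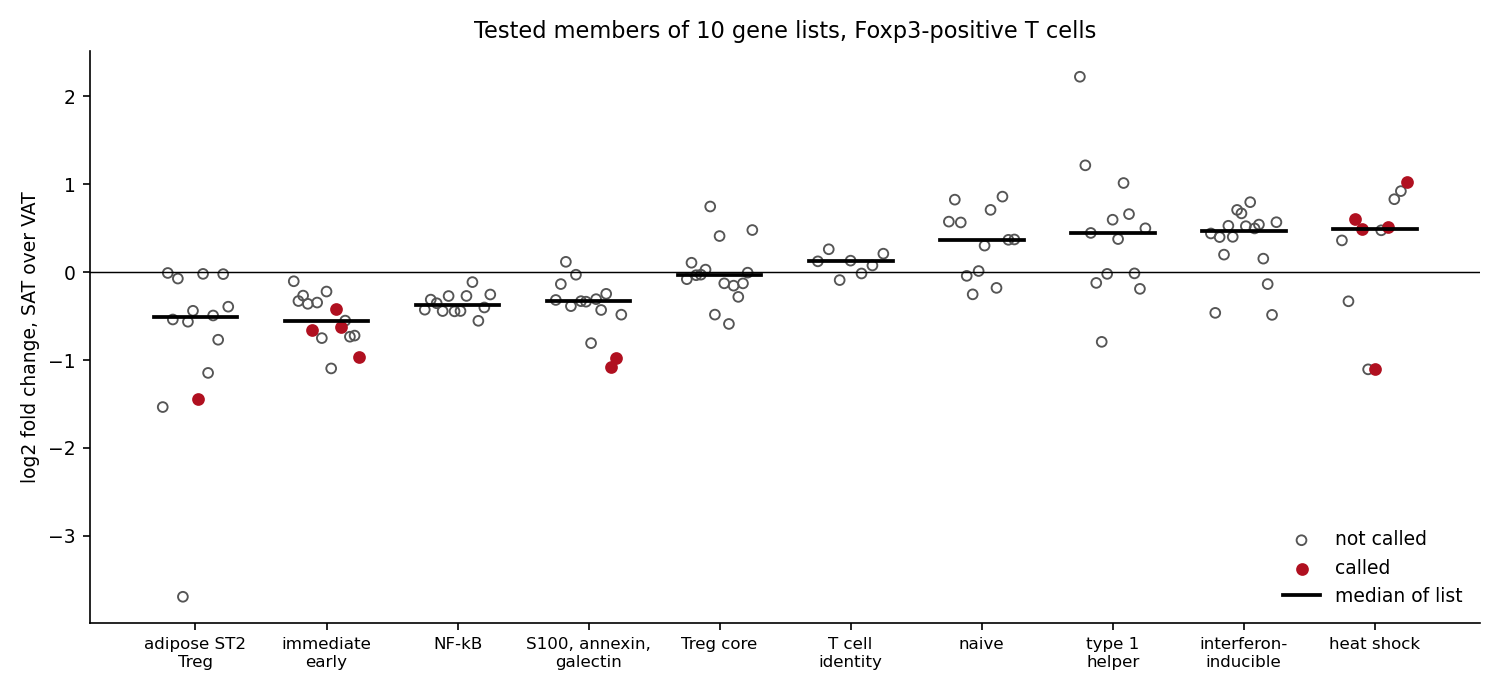
The vertical axis is the log2 fold change of SAT over VAT in Foxp3-positive T cells, each circle is 1 tested gene of 1 of 10 lists (filled where called) and each thick line is the median of a list. The immediate early, NF-kB and ST2 lists lie below 0, and the core Treg list is centred at -0.03.

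The core Treg program did not separate the depots in this test. Of 19 core genes 15 were tested, 0 were higher and 0 lower in SAT by edgeR, and the median log2 fold change was -0.03, with Ctla4 at -0.03 ± 0.21 (edgeR adjusted p 0.988) and Ikzf2 at 0.03 ± 0.11 (edgeR adjusted p 0.979). The largest differences were Nrp1, a semaphorin receptor, at -0.59 ± 0.21 (edgeR adjusted p 0.255) and the Ikaros-family factor Ikzf4 at 0.75 ± 0.34 (edgeR adjusted p 0.453). Cell cycle genes had 10 of 14 tested, 0 called and a median of 0.19, naive genes 12 of 13, 0 called and 0.37, and costimulatory and checkpoint receptors 11 of 16, 0 called and -0.02. Integrins had 12 of 15 tested, 0 called and -0.30, glycolysis genes 11 of 14, 0 called and 0.03, and repair products 8 of 15, 0 called and -0.56. Absence of a call in these lists does not show that the depots were alike.

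T cells without a Foxp3 UMI from the same samples showed part of the same pattern. They may include Treg cells whose Foxp3 transcript was not counted, and the part of such cells was not tested. There 264 of 10261 genes were called (2.57%), 187 higher in SAT (1.82%) and 77 lower (0.75%). Of the 25 genes 24 were tested there, 21 had the same sign and 10 were called with it. Of the chaperone genes, Hsph1 was higher in SAT in these cells too, at 0.55 ± 0.09 (edgeR adjusted p 0.00172), Hspa8 at 0.32 ± 0.07 (edgeR adjusted p 0.0182) and Hsp90b1 at 0.44 ± 0.06 (edgeR adjusted p 0.000191), while Hsp90aa1 at 0.29 (edgeR adjusted p 0.144) and Hsp90ab1 at 0.24 (edgeR adjusted p 0.0666) did not pass. Cirbp at -0.95 ± 0.08 (edgeR adjusted p 2e-07) and Rbm3 at -0.81 ± 0.06 (edgeR adjusted p 1.84e-07) were lower in SAT in these cells too, as was Il1rl1 at -2.16 ± 0.43 (edgeR adjusted p 0.0495), which only 1.18% of SAT and 3.95% of VAT Foxp3-zero cells carried.

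The SAT against VAT difference of S100a4, S100a6, Jund and Fos differed between Foxp3-positive and Foxp3-zero cells. The test of the difference between the classes, with the hashed sample as a block, called 8 of 8252 genes (0.0969%), and 634 had an unadjusted p under 0.05. Of the 25 genes, 4 were among them. S100a4 had a difference of -0.94 ± 0.17 (positive minus zero, edgeR adjusted p 0.01998), with -0.13 ± 0.08 in Foxp3-zero cells. S100a6 had -0.87 ± 0.16 (edgeR adjusted p 0.0219), Jund -0.67 ± 0.13 (edgeR adjusted p 0.01998) and Fos -0.58 ± 0.12 (edgeR adjusted p 0.0407), with log2 fold changes of -0.09, 0.07 and -0.03 in Foxp3-zero cells. Junb (edgeR adjusted p 0.141), Jun (edgeR adjusted p 0.244) and S100a11 (edgeR adjusted p 0.459) did not pass this test. For Hsph1 the difference was 0.46 ± 0.25 (edgeR adjusted p 0.671) and for Il1rl1 0.71 (edgeR adjusted p 0.654), neither past the threshold. Foxp3-zero cells also hold other helper classes in other proportions in each depot, and perhaps Treg cells with an uncounted Foxp3 transcript. The part of that make-up cannot be told apart from class here. Against Foxp3-zero cells with Icos or Cd44 and no Ccr7 the count was 3, and without SAT replicate 1 it was 2.

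**Figure D5:**
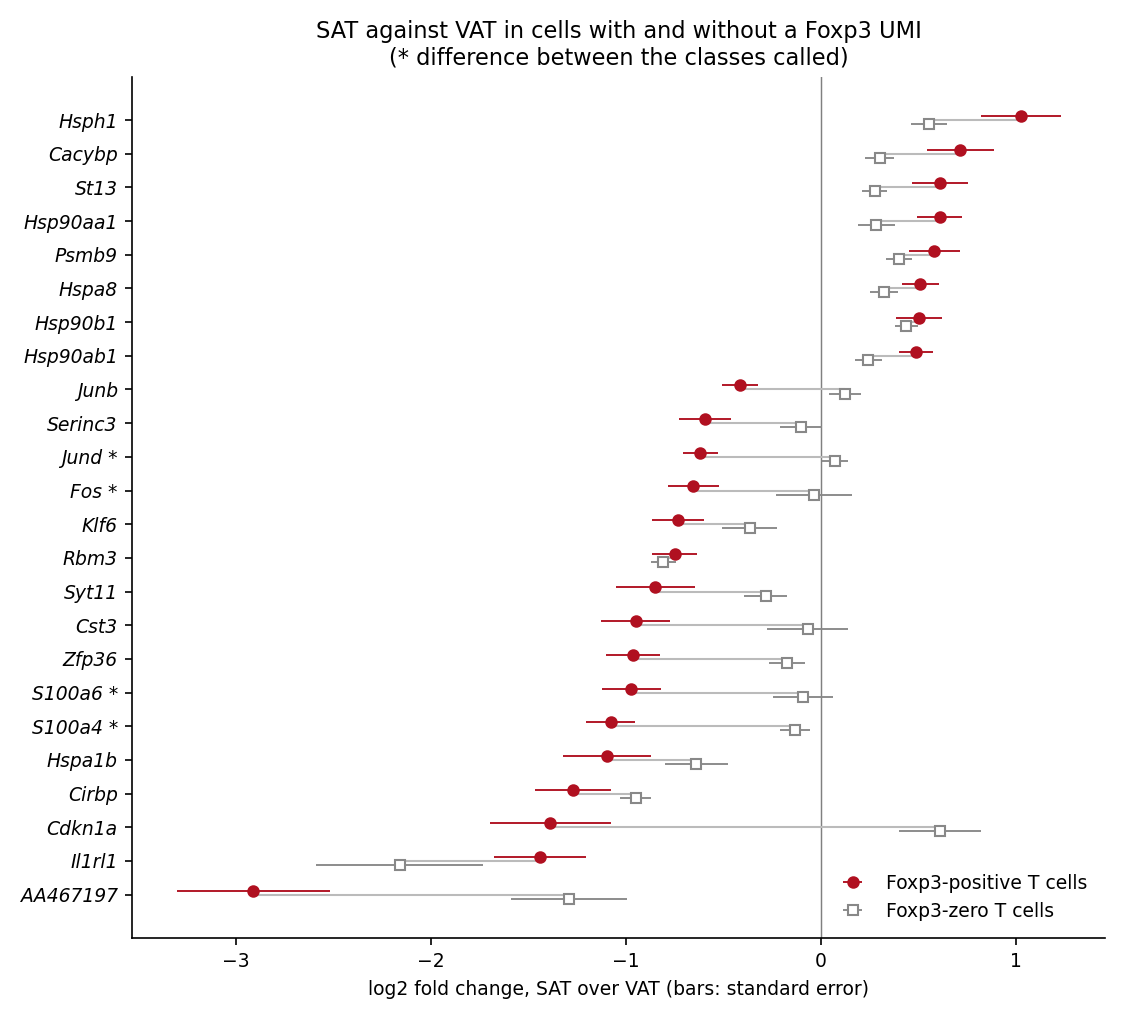
The horizontal axis is the log2 fold change of SAT over VAT with its standard error. Each called gene is shown but Ctsh, which was not tested in Foxp3-zero cells. Filled circles are Foxp3-positive and open squares Foxp3-zero T cells of the same samples. S100a4, S100a6, Jund and Fos, marked with a star, have negative values in Foxp3-positive cells and values near 0 in Foxp3-zero cells.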

How the data were processed

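Single CD4 T cells of 2 hashed droplet libraries were measured, with 8 hashed samples each. The authors deposited raw UMI counts per barcode for 55487 genes and 15 hashtags, written by Cell Ranger 6.1.0 per the file headers, with build mm10, and the submitters' processing notes also name bcl2fastq and Seurat, without versions. Hashtags were matched to the labels by number. The members and gene lists were chosen with earlier results of these data known.

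Cells were filtered and given a hashed sample as the report states, each hashtag count plus 1 being divided by its median in T cells passing the filter. Cells with a second hashtag near the first were left out by that ratio, and no doublet caller was run. Foxp3-positive and Foxp3-zero cells were summed per sample with a minimum of 20 cells. Sums were tested with edgeR 4.0.16 (R 4.3.3), with TMM scaling, filterByExpr at a minimum count of 10, glmQLFit and glmQLFTest on experiment and tissue, and Benjamini-Hochberg adjustment over all genes tested at 0.05. Printed CPM values are a gene's UMIs over all UMIs of the sample, without TMM scaling. The sums held 268937 to 451626 UMIs in Foxp3-positive cells. In data simulated on 4426 genes, 80 of 96 genes changed by 1 log2 unit and 104 of 104 changed by 2 were recovered, and 9 of 4226 unchanged genes were called. The simulation held no difference between experiments and no single cells with a large part of a gene's UMIs. It held no changes under 1 log2 unit, such as those of Hspa8 and Jund. Its figures therefore do not give the recovery or error in the measured data.

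Named are up to 12 called genes with the largest log2 fold change per direction that moved the same way in both experiments, up to 4 per list by p-value, Il1rl1, Cxcr3, and called interaction genes. Unnamed gene models were left out of these, and some genes that the rule names are not reported here. Other called genes were named after their values were seen. Shares were tested by exact permutation of tissue within experiments (36 arrangements), with exact Clopper-Pearson 95% intervals, which cover counting error only. Alternatives were DESeq2 1.42.0, other scalings, filters, designs, hashtag margins, thinning, cell subsets and leaving out each sample. Coordinates are from GENCODE vM21 for mm10, in which 54349 gene IDs were found, and promoters from RefSeq GRCm38.p6. Python 3.11.15 with numpy 2.4.6, scipy 1.17.1, pandas 2.3.3 and matplotlib 3.10.9 was used.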

Additional observations from a re-analysis of the deposited data

Results flagged for a closer look

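In groups of 4 samples, a sample was marked when its gap to the nearest other exceeded the 95% critical value of Dixon's test, as a share of the group's range, which chance does in about 1 of 20 groups. Of 54 groups 5 were marked, all in SAT. These were Il1rl1 in replicate 2 (126.3 CPM), Hspa1b in replicate 1 (111.5 CPM), S100a6 in replicate 2 (2475 CPM), Klf6 in replicate 3 (214 CPM) and the share of cells with Cxcr3 in replicate 1 (66.67%). SAT replicate 1 is the sample with the weak hashtag.

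The SAT against VAT difference differed between Foxp3-positive and Foxp3-zero cells, as log2 values with edgeR's test of that difference, for Jund (-0.67), S100a4 (-0.94), S100a6 (-0.87), Fos (-0.58), Nav2 (-2.09), Ms4a6c (-2.24) and Ecm1 (2.13). Nav2 had a log2 fold change of 1.13 in Foxp3-zero cells, which was called (edgeR adjusted p 0.00401), and of -0.93 in Foxp3-positive cells, which was not (edgeR adjusted p 0.187). Ecm1 and Ms4a6c had too few counts to be tested in Foxp3-positive cells alone. The 83 VAT UMIs of Ms4a6c came from 18 cells, 23 of them from 1 cell.

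The 7 hashtags that the labels do not name held 0.0856% and 0.0964% of hashtag counts in libraries 1 and 2.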

How the results depend on the processing

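The count of 25 called genes was 22 by DESeq2 (AA467197 had no adjusted p there), 23 with library-size scaling and 25 with RLE factors. It moved to 103 with no filter on low counts, 14 with all 4 tissues in 1 fit, 9 without the experiment term, 7 at a hashtag ratio of 4, 9 with cells thinned to 2000 UMIs, 16 with at least 2 Foxp3 UMIs, 4 without Il1rl1 or Cxcr3 cells in experiment 2 alone, and 16 to 65 with 1 sample left out (16 without VAT replicate 1, 65 without SAT replicate 4). Settings added after the data were seen gave 0 without Il1rl1 or Cxcr3 cells in samples of 5 or more cells, where 97 of 1402 genes had an unadjusted edgeR p under 0.05, and 3 without Il1rl1 cells. The last settings tested fewer genes in fewer cells. The numbers were not taken as pairs, since the labels do not pair them. Deviations of same-numbered samples had correlations of 0.05 and -0.04. With 2 samples per tissue in an experiment this cannot show whether they shared mice. A replicate block gave 42 calls. The count of 8 for the difference between classes was 2 after thinning, 3 against Foxp3-zero cells with Icos or Cd44 and 2 to 12 with 1 sample left out (2 without SAT replicate 1, 3 without VAT replicate 3, 5 without SAT replicate 2). The Il1rl1 share difference ran from -9.19 to -21.2 points and that of Cxcr3 from 11.02 to 18.2 with 1 sample left out, and was 5.01 for Cxcr3 at a hashtag ratio of 4. Over 26 genes and their settings, 491 of 700 values were counted as unchanged, 206 kept direction only and 3 reversed. The 491 include each experiment alone, where only the direction was compared and no test was run. They also include 26 values of Cxcr3, which was called in no setting, so fewer than 491 kept a call. The 3 reversed were all of Cst3, at 0.97 and 0.66 without Il1rl1 or Cxcr3 cells and 0.0503 without cells over 20000 UMIs. With each of the 8 samples left out in turn, Cacybp and Syt11 were called in 1 fit and St13 and Hsp90b1 in 2. Fos, Junb, Serinc3 and Cst3 were called in 3, and the other called genes in 4 or more. Causes of these changes were not tested. Leaving out cells with any UMI of another cell type was not run, since under 20 cells per sample remained. Depth limits genes with few UMIs, such as Pparg and Il10, which stayed under the filter.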
